A study of Mus musculus with 18 samples.

Results

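Naive CD8+ T cells taken from the spleen were compared with CD4+CD8+ precursors made in culture, across all genes. The members are the libraries titled splenic CD8 (n = 5) and CD4+CD8+ (n = 3), which make up 8 of the 18 libraries of the series, and every change is given as splenic minus cultured. The splenic libraries come from transgenic mice, were taken ex vivo and are described by the labels as naive CD8+ cells, with pmel in their library names. The precursors, called DP (double positive) here, were differentiated on OP9-DL1 from the source named Pmel iPSC. OP9-DL1 is a mouse stromal line that carries a Notch ligand and drives blood progenitors towards T cells in a dish. The pmel transgene is a rearranged T-cell receptor against a melanocyte protein, and induced pluripotent stem cells (iPSC) are adult cells reprogrammed to an embryo-like state. No library had a treatment. Sorting used CD45, the coreceptors CD4 and CD8 and TCRab, and left out cells with NK1.1, TCRgd or CD11c. The growth protocol names OP9-DL1 for the splenic samples too, although their tissue is given as spleen. Age, sex, strain and the number of mice or cell clones are not in the labels. The labels also do not say that replicates were separate animals or cultures. Each p-value reflects no more than the spread within the groups of all 18 libraries, which were fitted together, and that spread may be technical. The standard errors given with changes come from the 8 libraries alone. A small standard error can therefore stand beside a p-value that misses the threshold.

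In the thymus a precursor passes through a stage at which it carries both CD4 and CD8. There it rearranges the T-cell receptor alpha chain with the Rag recombinase and is tested on self peptides held by MHC proteins. Cells that pass lose one coreceptor, shut off the recombinase, leave for the blood and settle in spleen and lymph nodes as naive cells. A naive CD8+ cell rests outside the cell cycle, recirculates through lymphoid organs with the help of homing receptors, and depends on interleukin 7 and on contacts with self MHC.

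The libraries held between 11747400 and 12208200 counts in DP and between 11132800 and 17671900 in splenic cells. Levels are given in CPM, counts scaled to a common library total with the trimmed mean of M-values (TMM), and they are not compared between genes because no gene lengths were used. The replicates of splenic cells were closer to each other than the DP libraries were, with a median gene standard deviation of 0.17 in log2 CPM against 0.30. DP 1 stood apart from DP 2 and DP 3. It lay at -61.0 on the second principal component (6.3% of the variance), where DP 2 and DP 3 lay at 32.5 and 30.0, and ribosomal protein genes took 4.99% of its counts against 3.14% and 3.32%. Many results that move without DP 1 are therefore given with and without it. Where no second value is given, a list count or median may still move without DP 1. In bulk RNA, fewer cells of a type and less RNA per cell cannot be told apart. The 2 groups also differ in source, in culture and in the style of their library descriptions, and these cannot be told apart from cell type.

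Of 13922 genes tested, 3809 were higher in splenic cells (27.4%) and 4019 were lower (28.9%), so 56.2% of all genes were called in the edgeR quasi-likelihood F test at a Benjamini-Hochberg adjusted p under 0.05. At least 2-fold changes were called for 2544 genes upward (18.3%) and 2205 downward (15.8%), and at least 16-fold changes for 415 and 498. The libraries of the groups did not overlap at 8823 genes (63.4%), of which 4555 were higher (32.7%) and 4268 lower (30.7%). The median change over all genes tested was 0.03 on the log2 scale. Without DP 1, 3264 genes were higher and 3675 lower. The counts for each gene list below are set against these shares and against that median.

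**Figure D1:**
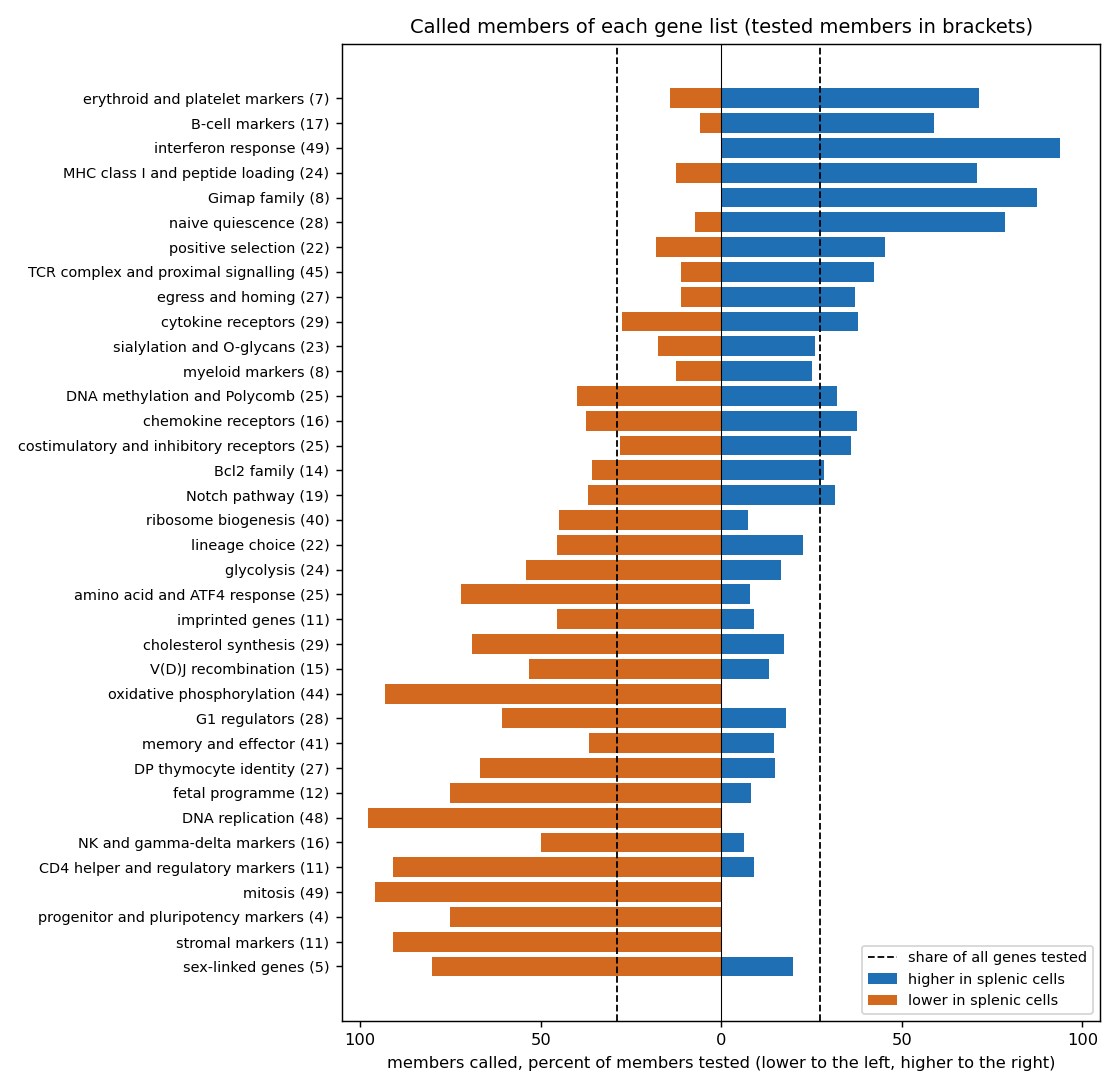
Each row is 1 gene list with its number of tested members in brackets, and the bars give the percent of those members called higher (right) or lower (left) in splenic cells. The dashed lines mark 27.4% and 28.9%, the shares of all 13922 genes; the interferon response bar reaches furthest right (46 of 49 members) and the DNA replication bar furthest left (47 of 48).

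Rag1, Rag2 and Ptcra, genes of receptor assembly, were at or near 0 in splenic cells. Rag1, the catalytic subunit of the recombinase, stood at 258, 445 and 463 CPM in DP 1, 2 and 3 and had no count in any splenic library. Against a floor of 3 counts per library it was at least 1525-fold lower in splenic cells (edgeR adjusted p = 2.26e-08), the largest fall by fitted change among genes without overlap. Rag2, its partner, held 103, 169 and 168 CPM in the DP libraries and a total of 2 counts in splenic cells, both in splenic library 1. The ratio of DP to splenic was 5545-fold (95% interval 1534 to 45795) by counting error alone. Ptcra, the surrogate alpha chain used before the true alpha chain is made, held 163, 114 and 108 CPM in DP and none in splenic cells, at least 503-fold lower. Dntt, which adds bases at receptor joints, was still read in splenic cells at 39.2, 39.9, 40.6, 39.5 and 37.7 CPM. In DP it stood at 130.1, 109 and 119 CPM, and it fell by 1.60 ± 0.07 on the log2 scale (± standard error, as for every change below; edgeR adjusted p = 0.00267). DP 1 held the least Rag1 and Rag2 of the 3 DP libraries, and the most Ptcra and Dntt.

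Of 15 recombination genes tested, 8 fell and 2 rose, around a median change of -0.97. The DNA-bending proteins Hmgb2 and Hmgb1, cofactors of the recombinase that also act in general chromatin, fell by 3.89 ± 0.14 and 1.73 ± 0.14, and the end-joining subunit Xrcc6 fell by 1.82 ± 0.08. The repair kinases Atm and Prkdc rose, by 2.07 ± 0.14 and 1.51 ± 0.12. The joining factors Polm (0.31 ± 0.20), Dclre1c (0.37 ± 0.20) and Xrcc4 (-0.09 ± 0.18) were not called. The falls were steep for Rag1, Rag2 and Ptcra, but Dntt (-1.60) fell by less than Hmgb2 and Xrcc6. The shared repair genes moved in both directions. Without DP 1 the counts of this list were 8 and 2 again.

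Cd4 fell to the edge of detection. It stood at 155, 253 and 263 CPM in DP, lowest in DP 1, and splenic library 1 held its only 3 splenic counts, a ratio of 5641-fold (95% interval 1929 to 27358) from counting error. The CD8 coreceptor was present in both groups. Cd8a held 1144, 1088, 1135, 1181 and 1230.5 CPM in splenic libraries 1 to 5 and 1004, 805 and 810.2 CPM in DP, and all 5 splenic values lay above the 3 DP values. Its change of 0.40 ± 0.11 was not called (edgeR adjusted p = 0.142), and was called when the 8 libraries were fitted alone. Cd8b1 rose by 0.51 ± 0.17 (edgeR adjusted p = 0.00682), a call lost without DP 2 (0.42) or DP 3 (0.42). The signalling chain Cd3e overlapped between the groups at 810.4, 844, 811, 805 and 822 CPM in splenic cells and 904, 667 and 651 CPM in DP. Its change was 0.14 ± 0.15 (edgeR adjusted p = 0.529, not called), and both groups thus carried the T-cell and CD8 transcripts that their labels name.

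**Figure D2:**
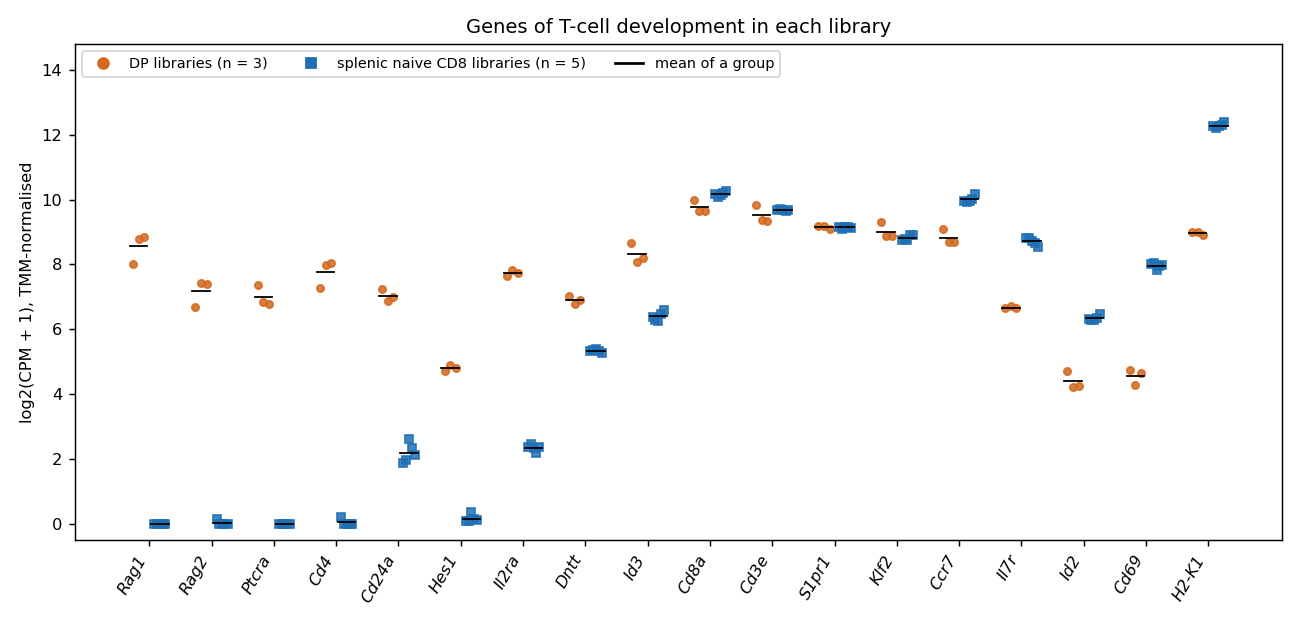
Each point is 1 library, with the gene on the horizontal axis and log2(CPM + 1) on the vertical axis, and short black lines mark the mean of these log2 values in a group. The DP libraries lie above the splenic ones for Rag1 to Id3, the groups overlap for Cd3e, S1pr1 and Klf2, and the splenic libraries lie above for Ccr7, Il7r, Id2, Cd69 and H2-K1.

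Among 27 genes of DP thymocyte identity, 18 fell and 4 rose (median -1.38). Cd24a, a surface marker lost on maturation, stood at 150.2, 116 and 128 CPM in DP and at 2.7, 2.9, 5.13, 4.1 and 3.4 CPM in splenic cells. That is a fall of 5.17 ± 0.20 (edgeR adjusted p = 3.3e-07) with no overlap. The channel gene Aqp11 fell by 6.25 ± 0.26 and the transcription factor Ets2 by 1.98 ± 0.06. The chemokine receptor Ccr9, high in DP thymocytes of the thymus, went the other way and rose by 1.21 ± 0.06, and the lipid-presenting molecule Cd1d1 rose by 1.78 ± 0.10. Tox, needed for CD4 lineage development, rose by only 0.30 ± 0.07, and the call was lost without DP 2 (0.24), DP 3 (0.28) or splenic library 3 (0.26). Satb1 (-0.04 ± 0.05), Themis (0.17 ± 0.15) and Tcf3 (-0.19 ± 0.11) were not called. In this list Satb1, a chromatin organiser of thymocytes, was read at 893, 952, 955, 952 and 841 CPM in splenic cells and 909, 981 and 948 CPM in DP, an overlapping range.

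E proteins are transcription factors that drive the early T-cell programme, and Id proteins are their inhibitors. Tcf12, the E protein HEB, fell by 1.25 ± 0.12 (edgeR adjusted p = 7.26e-07). The inhibitors moved in opposite directions. Id3 held 408, 267 and 290.4 CPM in DP and 83.1, 76.4, 75.9, 87.4 and 96.4 CPM in splenic cells, and fell by 1.94 ± 0.20 (edgeR adjusted p = 9.47e-09). Id2 held 25.3, 17.7 and 17.9 CPM in DP and 79, 76.4, 77.5, 80.6 and 87.6 CPM in splenic cells, and rose by 1.98 ± 0.17 (edgeR adjusted p = 0.000143). Neither gene overlapped between the groups, and DP 1 was the highest DP library for both.

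Of 22 lineage choice genes, 10 fell and 5 rose (median -0.41). Gata3, which favours the CD4 fate, fell by 1.40 ± 0.07, and Tcf7, a regulator of T-cell identity, fell by 0.63 ± 0.03. Its relative Lef1 rose by 0.75 ± 0.06. Runx3, which silences Cd4 in CD8 cells, was slightly lower in splenic cells (-0.31 ± 0.10, edgeR adjusted p = 0.022), a call lost without DP 1 (-0.22). The CD4-fate factor Zbtb7b had 6 splenic and 2 DP counts in all and was not tested. Bcl11b (0.08 ± 0.20) was not called. The count of members that rose was 2 without DP 1, DP 3, splenic library 3 or splenic library 4, and 3 without splenic library 2.

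Notch signalling, which OP9-DL1 supplies in the dish and which normally fades at the DP stage, left a mixed picture: 7 of 19 genes fell and 6 rose (median -0.28). The direct target Hes1 stood at 25.2, 28.7 and 27.1 CPM in DP and at 0.054, 0.0708, 0.281, 0.121 and 0.0849 CPM in splenic cells, a fall of 7.71 ± 0.21 (edgeR adjusted p = 4e-11). The receptor Notch3 fell by 5.35 ± 0.44, from 74.7 ± 26.3 to 1.86 ± 0.861 CPM (SD, n = 3 and n = 5), and Notch1 fell by 0.71 ± 0.08. DP 1 held the least Notch3, at 46.1 CPM. The target Dtx1 overlapped between the groups, at 444, 425, 460.3, 483 and 419.9 CPM in splenic cells and 469, 505 and 479 CPM in DP (-0.12 ± 0.05, edgeR adjusted p = 0.795). Nrarp, another target, was near the limit of detection in both (0.395 ± 0.272 and 0.61 ± 0.375 CPM) and was not called. The coactivator Maml2 rose by 1.94 ± 0.20 and the glycosyltransferase Rfng by 1.36 ± 0.17. The Notch targets measured thus did not move as 1 block.

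Receptors for growth factors moved in both directions. Kit, the stem cell factor receptor of early precursors, stood at 95.5, 139.6 and 125 CPM in DP and at 0.648, 0.354, 0.281, 0 and 0.425 CPM in splenic cells, a fall of 8.41 ± 0.46 (edgeR adjusted p = 1.42e-07). Il2ra, the alpha chain of the interleukin 2 receptor (CD25), fell by 5.71 ± 0.08, from 213 ± 14.2 to 4.07 ± 0.373 CPM. The interleukin 9 receptor gene Il9r held 15, 15.9 and 16.8 CPM in DP and no count in splenic cells, at least 62.3-fold lower. Il7r, the receptor through which naive cells survive, rose by 2.05 ± 0.06 (edgeR adjusted p = 5.66e-07), with 452, 445, 423, 400.3 and 372 CPM in splenic cells and 99.5, 105 and 98.9 CPM in DP. The shared chain Il2rg rose by 0.74 ± 0.11, Il21r by 0.98 ± 0.17 and the interleukin 6 signalling chain Il6st by 2.24 ± 0.31. Il2rb rose by 0.53 ± 0.10 (edgeR adjusted p = 0.0226) and was not called without DP 1 (0.44). The interferon receptor chains Ifnar1 (0.04 ± 0.18) and Ifnar2 (-0.03 ± 0.08) overlapped and were not called. Of 29 cytokine receptor genes, 11 rose (37.9%) and 8 fell (27.6%), beside 27.4% and 28.9% over all genes, with a median of 0.28. Without DP 1, 8 of 30 tested rose and 8 fell, with a median of 0.09.

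Genes linked to selection by self MHC moved unevenly. Of 22 genes in the positive selection list, 10 rose and 4 fell (median 0.52). The rises include H2-K1, an MHC heavy chain described below, so the count does not measure selection signals alone. Egr3 was also called higher, with 86 counts in splenic cells and 1 in DP. That is a ratio of 41.0-fold (95% interval 7.16 to 1637) by counting error. Cd69, induced by receptor signals, held 256, 261, 226, 249 and 252 CPM in splenic cells and 25.7, 18.3 and 24.4 CPM in DP, and rose by 3.45 ± 0.15 (edgeR adjusted p = 0.00507). Slfn1, a Schlafen gene linked to quiescence after selection, rose by 6.88 ± 0.25, from 3.21 ± 0.897 to 378 ± 25.7 CPM. The immediate early factor Egr1 was higher in every splenic library (55.1, 55.8, 56, 64.1 and 52.8 CPM) than in DP (25.4, 26.2 and 24.1 CPM), but its change of 1.17 ± 0.06 was not called (edgeR adjusted p = 0.269). It was called when only the 8 libraries were fitted (1.16). Nr4a1, another receptor-induced factor, overlapped and was not called (-0.64 ± 0.23). Cd5, which tracks the strength of self recognition, rose by 0.57 ± 0.13 at an edgeR adjusted p of 0.0433. That call was lost in 7 of the 8 fits without 1 library (changes from 0.47 without DP 2 to 0.58 without splenic library 2) and kept only without DP 1. The HMG-box factor Tox2 fell by 7.51 ± 0.23 (by 8.10 without splenic library 3) and the receptor-associated adaptor Trat1 by 1.32 ± 0.09.

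Genes of receptor signalling leaned upward. Of 45 tested, 19 rose and 5 fell, with a median of 0.33, beside 27.4% and 28.9% over all genes. The phospholipase Plcg1 rose by 1.70 ± 0.22, the adaptor Grap by 1.27 ± 0.06 and the phosphatase-like regulator Ubash3a by 1.58 ± 0.09. Its paralogue Ubash3b fell by 2.73 ± 0.15 and the adaptor Sla, which lowers surface receptor levels in DP thymocytes, fell by 1.12 ± 0.04. The paralogues thus moved in opposite directions. Cd3g (-0.04 ± 0.19) and Cd6 (0.53 ± 0.06) were not called. The number of members that fell was 3 without DP 1 and without any 1 of splenic libraries 1, 2 and 3. The beta-chain transcripts given here were lower in splenic cells, and no alpha-chain value is given. Trbv14, the beta-chain segment of the pmel receptor, held 3932, 3634, 3801, 4186 and 4176 CPM in splenic cells and 8641, 6677 and 6402 CPM in DP, a fall of 0.88 ± 0.14 with no overlap (edgeR adjusted p = 3.31e-05), and the constant gene Trbc2 fell by 0.77 ± 0.17. Reads of the 2 beta constant genes can be shared, so the split between them is uncertain.

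Costimulatory and inhibitory receptors gave 9 rises and 7 falls in 25 (median -0.04, or 0.09 without DP 1). The inhibitory receptors Ctla4 and Pdcd1 were the clearest falls, by 4.06 ± 0.11 and 4.05 ± 0.13. Ctla4 stood at 2.75, 3.89, 3.59, 3.26 and 3.74 CPM in splenic cells and at 55.1, 53.8 and 62.8 CPM in DP. The adhesion and costimulatory receptor Cd226 rose by 4.01 ± 0.13, from 10.9 ± 1.38 to 175 ± 21.8 CPM, and Tnfrsf14 (HVEM) and the ligand gene Cd274 (PD-L1) rose by 3.54 ± 0.48 and 2.52 ± 0.26. Cd2 (-0.13 ± 0.10), Cd96 (-0.21 ± 0.15) and Slamf6 (-0.04 ± 0.13) overlapped and were not called.

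For egress and homing, 10 of 27 genes rose and 3 fell (median 0.29). S1pr1 and Klf2, which are central to leaving the thymus, were read at high levels in the cultured DP cells too and were not called. S1pr1, the receptor that draws cells out of the thymus, held 567, 550.1, 573, 574 and 559 CPM in splenic cells and 582, 579 and 545 CPM in DP, overlapping ranges with a change of -0.01 ± 0.03 (edgeR adjusted p = 0.968). Klf2, the factor that switches S1pr1 on, held 428, 436, 432, 482 and 479 CPM and 628, 471 and 465 CPM, also overlapping (-0.21 ± 0.15, edgeR adjusted p = 0.437), with DP 1 the highest of the 8 libraries. A p that misses the threshold does not show that these levels were equal.

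Other homing genes did change. Ccr7, which guides naive cells into lymph nodes, stood at 1003, 982, 1003, 1047 and 1150.4 CPM in splenic cells and at 547, 416 and 413 CPM in DP, a rise of 1.18 ± 0.14 (edgeR adjusted p = 6.94e-06). S1pr4 rose by 1.91 ± 0.09 and the transcription factor Foxo1, which sustains homing genes and Il7r, rose by 0.71 ± 0.05. The integrin chain Itgb1 fell by 1.71 ± 0.18 and the selectin ligand Selplg by 0.59 ± 0.16. Of 16 chemokine receptors, 6 rose and 6 fell (median -0.03, or 0.29 without DP 1 with 17 tested). Gpr183, an oxysterol receptor that positions lymphocytes, rose by 4.26 ± 0.19, Gpr18 by 3.21 ± 0.22 and Cxcr6 by 1.75 ± 0.09. Ccr4, seen on thymocytes on their way to the medulla, fell by 4.60 ± 0.38 and Cxcr5 by 3.06 ± 0.11, while Cxcr4 (0.47 ± 0.12) was not called. The direction thus depended on the receptor.

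Genes of the resting naive state rose in 22 of 28 cases and fell in 2, with a median of 1.23. Tsc22d3 (GILZ), a glucocorticoid and Foxo target, held 1571, 1641, 1572, 1598 and 1798 CPM in splenic cells and 139, 142 and 141 CPM in DP, a rise of 3.54 ± 0.04 (edgeR adjusted p = 2.19e-11). Igfbp4 rose by 3.59 ± 0.13, the repressor Bach2 by 2.73 ± 0.19, the actin regulator Evl by 1.83 ± 0.08 and the membrane protein Ms4a6b by 1.34 ± 0.08. The exceptions were Tcf7, described above, and Tob1, an antiproliferative gene that fell by 0.81 ± 0.07. The call of Tob1 was lost without DP 1 (-0.81), DP 2 (-0.76), DP 3 (-0.88) or splenic library 2 (-0.81). Without DP 1, 22 rose again. All 8 tested members of the Gimap family, GTPases of lymphocyte survival, had positive changes and 7 were called (median 1.31). Gimap3 held 1059.8, 1024, 1054, 1038 and 1033 CPM in splenic cells and 132, 135 and 147 CPM in DP (2.92 ± 0.05), and Gimap8 rose by 2.95 ± 0.34. Gimap1 was not called (0.16 ± 0.07). Gimap genes are close copies, so the share of each is uncertain.

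The survival genes of the Bcl2 family moved in opposite directions. Bcl2l1, whose product Bcl-xL keeps DP thymocytes alive, held 158, 135 and 138 CPM in DP and 15.4, 17.6, 18.7, 18.2 and 19 CPM in splenic cells, a fall of 3.01 ± 0.09 (edgeR adjusted p = 9.67e-12). Bcl2, the survival factor of mature cells, held 208, 205 and 189 CPM in DP and 260.4, 312, 322, 341 and 286 CPM in splenic cells, a rise of 0.60 ± 0.08 (edgeR adjusted p = 0.0019). Mcl1 rose by 0.98 ± 0.13. The death-promoting genes Pmaip1, Bid and Bbc3 fell by 2.28 ± 0.37, 0.98 ± 0.12 and 0.90 ± 0.05. Bcl2l11 (-0.24 ± 0.07) and Bax (-0.34 ± 0.11) were not called. For both, every splenic library lay below every DP library, and both were called lower when the 8 libraries were fitted alone. Of 14 family members tested, 4 rose and 5 fell (median -0.11).

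The interferon response list had the highest share of rises, 46 of 49 tested members with none falling, and a median of 2.05 against 0.03 for all genes. The count was 46 of 50 tested members without DP 1. Ifi203, a DNA-binding interferon gene, held 241, 238, 227, 221 and 229 CPM in splenic cells and 45.1, 43.8 and 36.9 CPM in DP, a rise of 2.46 ± 0.09 (edgeR adjusted p = 4.55e-12). Usp18, which removes ISG15 and damps interferon signals, held 208, 181, 191, 201 and 209 CPM and 11.8, 9.72 and 7.77 CPM, a rise of 4.34 ± 0.18 (edgeR adjusted p = 2.85e-10). Rtp4 rose by 2.94 ± 0.21 and the nuclear body protein Sp100 by 1.37 ± 0.02. The immunity-related GTPase Iigp1 held 62.4, 54.2, 53.5, 49.2 and 56.1 CPM in splenic cells and 1 count in all DP libraries, a ratio of 1983-fold (95% interval 356 to 78328). Oas1a, a sensor of double-stranded RNA, held 44.1, 43.5, 42.5, 42.4 and 48.3 CPM in splenic cells and no count in DP, at least 170.2-fold higher, although close copies in the Oas1 family leave its share uncertain. The interferon regulator Irf7, picked out after its values were seen, rose by 4.32 ± 0.12. The 3 members that were not called were Eif2ak2 (0.40 ± 0.27, called without DP 3 at 0.55), Lgals3bp (0.20 ± 0.11) and Bst2. The receptor chains Ifnar1 and Ifnar2 were not called either, as given above.

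Interferon-stimulated genes are switched on by the factor ISGF3 and by IRF proteins, which bind repeats of GAAA spaced by 2 bases. The motif searched for was GAAA, any 2 bases and GAAA again, on both strands in the 250 bases before the start. It was found in the RefSeq promoter windows (build GRCm38.p6) of 15 of the 34 interferon list members that had a window (44.1%). It occurred in 821 of 27025 windows of all genes (3.0%) and in 252 of 9398 windows of tested genes (2.7%). A match is a description of letters, not of a bound site. Oas1a and Bst2, an antiviral tether, were picked for display by rule, among the interferon genes named by rule that hold the motif. Oas1a was silent in DP and read in every splenic library, while Bst2 was not called. In both, capitals mark 2 matches that share their middle GAAA, which end 5 bases before the start in Oas1a and 115 bases before it in Bst2. The Oas1a window lies at chr5:120907526-120907775 on the minus strand and the Bst2 window at chr8:71537473-71537722 on the minus strand.
Oas1a: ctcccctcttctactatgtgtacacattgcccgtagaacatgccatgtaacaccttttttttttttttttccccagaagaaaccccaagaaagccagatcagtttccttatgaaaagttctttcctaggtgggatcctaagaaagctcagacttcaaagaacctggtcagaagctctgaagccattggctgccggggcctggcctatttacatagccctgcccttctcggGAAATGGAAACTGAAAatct
Bst2: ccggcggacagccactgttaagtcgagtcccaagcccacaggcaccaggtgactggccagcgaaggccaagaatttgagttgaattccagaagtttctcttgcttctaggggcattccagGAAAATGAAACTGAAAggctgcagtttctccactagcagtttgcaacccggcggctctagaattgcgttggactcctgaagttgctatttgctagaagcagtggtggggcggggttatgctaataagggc
Bst2 held 86.8, 76.7, 88.6, 103 and 101 CPM in splenic cells and 103, 73 and 72.7 CPM in DP, overlapping ranges with a change of 0.14 ± 0.18 (edgeR adjusted p = 0.442). The motif was thus present in a gene that changed at least 170.2-fold and in one that was not called.

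MHC class I genes, which display peptides to CD8 cells and are themselves induced by interferon, rose in 17 of 24 cases and fell in 3 (median 1.41). H2-K1 held 4907, 4755, 4909, 5029 and 5372 CPM in splenic cells and 511, 510.1 and 480 CPM in DP, a rise of 3.32 ± 0.04 (edgeR adjusted p = 9.46e-14), and by difference in CPM it was the largest rise of all genes the naming rule covers. H2-D1 rose by 2.24 ± 0.08, from 983 ± 78.7 to 4643 ± 381 CPM. The nonclassical genes H2-Q7 and H2-Q6 rose by 7.84 ± 0.27 and 10.85 ± 0.64 (H2-Q6 by 12.17 without DP 2, the DP library with most of its few counts), and close copies in this family leave the split between them uncertain. Nlrc5, the transactivator of class I genes, held 576, 563, 600.1, 536 and 461 CPM in splenic cells and 35.5, 44.1 and 47.1 CPM in DP (3.70 ± 0.14). The immunoproteasome subunit Psmb8 (0.05 ± 0.18), the activator Psme2 (0.11 ± 0.19) and the peptide trimmer Erap1 (0.05 ± 0.12) overlapped and were not called. The chaperones Canx and Calr, which also serve general protein folding, fell by 0.91 ± 0.25 and 0.61 ± 0.15. The heavy chains named here and their transactivator were thus higher. Only 4 of the 24 members were not called, and Psmb8, Psme2 and Erap1 were named as the 3 of these with the highest levels. They do not describe peptide supply as a whole.

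**Figure D3:**
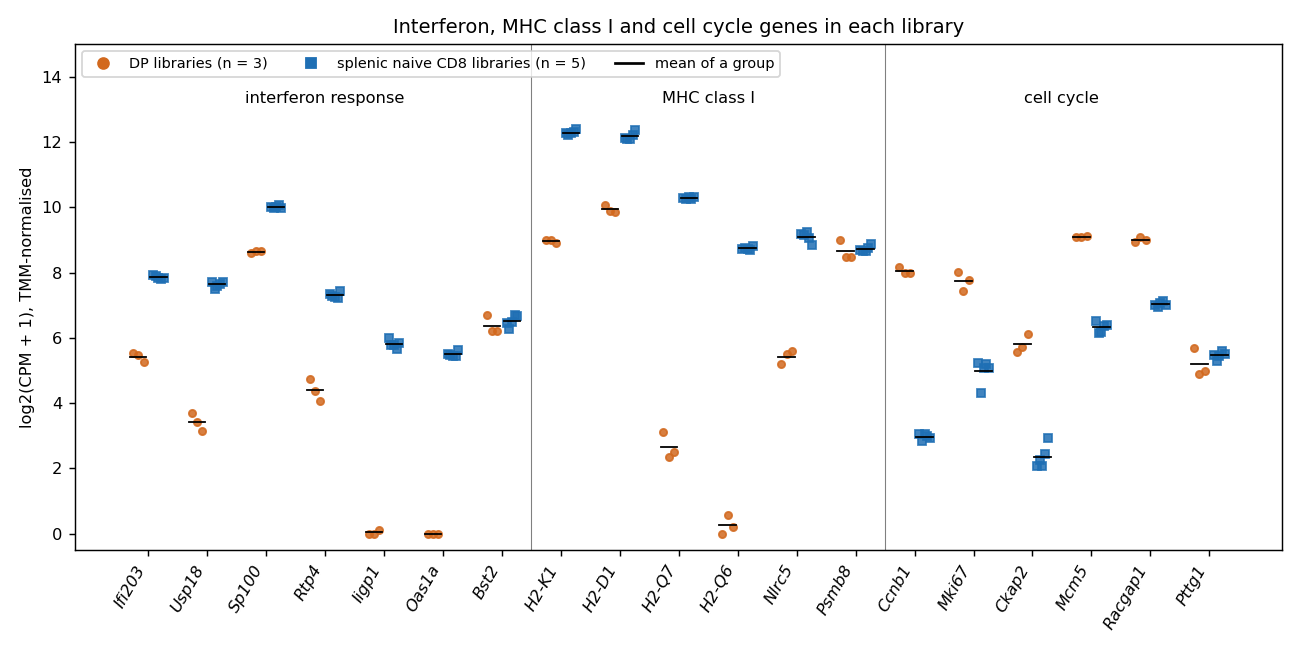
Each point is 1 library, with log2(CPM + 1) on the vertical axis and short black lines for the mean of these log2 values in a group. Among the interferon and MHC class I genes the splenic libraries lie above the DP libraries except for Bst2 and Psmb8, which overlap, and among the cell cycle genes they lie below except for Pttg1.

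Genes of DNA replication and of mitosis were lower in splenic cells with few exceptions. In the DNA replication list 47 of 48 tested members fell and none rose (median -1.84), and in the mitosis list 47 of 49 fell and none rose (median -3.71). The helicase subunit Mcm5 held 539.9, 545 and 555 CPM in DP and 91.4, 70.4, 71.8, 80.5 and 82.2 CPM in splenic cells, a fall of 2.78 ± 0.07 (edgeR adjusted p = 2.57e-09). Its loading partner Mcm10 fell by 5.02 ± 0.24, the replication transcription factor E2f2 by 2.52 ± 0.16 and the histone chaperone Chaf1b by 2.00 ± 0.16. Cyclin B1 (Ccnb1), which starts mitosis, held 286, 251 and 255 CPM in DP and 7.29, 6.09, 7.31, 7 and 6.62 CPM in splenic cells, a fall of 5.26 ± 0.08 (edgeR adjusted p = 2.55e-09). The proliferation marker Mki67 held 256, 173 and 218 CPM in DP and 36.3, 18.8, 32.8, 35.4 and 32.9 CPM in splenic cells, a fall of 2.78 ± 0.24. Racgap1, a cytokinesis regulator, fell by 1.98 ± 0.05 and the phosphatase Cdc25b by 1.86 ± 0.03. The exceptions were Pola2 (-0.22 ± 0.09), Kif23 (-0.45 ± 0.10) and Pttg1 (0.23 ± 0.26), which were not called, and Pttg1 was called higher without DP 1 (0.53). Without DP 1, 45 replication and 47 mitosis genes fell.

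Many promoters of mitotic genes carry a cell cycle homology region, to which the DREAM complex binds in resting cells, and CCAAT boxes bound by NF-Y. The letters TTTGAA were found, on both strands of the same windows, in 15 of 42 mitosis promoters (35.7%, against 16.3% of all windows and 10.6% of those of tested genes), and CCAAT in 31 of 42 (73.8%, against 34.5% and 36.8%). Both occurred together in 13 of 42 (31.0%, against 5.7% of all windows and 4.0% of those of tested genes). The windows of Ckap2, a spindle protein, and Mki67 are shown because they hold both motifs among the genes described here. Capitals mark TTTGAA and CCAAT on either strand, and no match of one overlaps a match of the other in these windows. Ckap2 lies at chr8:22185820-22186069 on the minus strand and Mki67 at chr7:135716380-135716629 on the minus strand.
Ckap2: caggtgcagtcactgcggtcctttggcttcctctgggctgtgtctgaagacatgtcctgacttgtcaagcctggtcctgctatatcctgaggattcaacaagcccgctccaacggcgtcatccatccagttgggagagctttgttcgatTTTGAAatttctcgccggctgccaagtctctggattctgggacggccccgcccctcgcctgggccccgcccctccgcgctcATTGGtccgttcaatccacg
Mki67: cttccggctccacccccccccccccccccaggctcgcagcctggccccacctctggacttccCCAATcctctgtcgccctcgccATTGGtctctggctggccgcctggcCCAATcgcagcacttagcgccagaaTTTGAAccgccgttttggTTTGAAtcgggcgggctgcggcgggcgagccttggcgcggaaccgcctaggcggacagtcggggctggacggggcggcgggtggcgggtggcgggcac
Ckap2 fell by 3.71 ± 0.25, from 55.4 ± 11.3 to 4.26 ± 1.4 CPM (SD, n = 3 and n = 5), and its groups did not overlap. Ccnb1, Racgap1 and Cdc25b, which fell as well, were not among the genes found to hold both motifs.

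Of 28 regulators of entry into the cycle, 17 fell and 5 rose (median -1.01), and without DP 1 the number that rose was 3. Ccnd3, the D cyclin of thymocyte expansion, fell by 1.14 ± 0.16, and Ccnd2 rose by 1.17 ± 0.13. The inhibitor Cdkn1b (p27), a brake of resting T cells, rose by 1.16 ± 0.13, whereas Cdkn1a (p21) fell by 8.02 ± 0.31 and Cdkn2b (p15) was read at 8.82, 11.4 and 11.3 CPM in DP and as 1 count in splenic cells (ratio 793-fold (95% interval 141 to 31409)). Without splenic library 3 Cdkn1a fell by 8.62. Myc, the driver of growth, held 208, 206 and 198 CPM in DP and 64.8, 70.8, 72.2, 89.5 and 75.8 CPM in splenic cells, a fall of 1.45 ± 0.08 (edgeR adjusted p = 5.66e-05). D cyclins and CDK inhibitors were thus found on both sides.

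Of 44 genes of oxidative phosphorylation 41 fell and none rose, with a median of -0.98 (39 fell without DP 1). The ATP synthase genes Atp5b and Atp5a1 fell by 0.90 ± 0.03 and 0.97 ± 0.05 and Cox4i1 by 1.48 ± 0.19, while Sdha (0.01 ± 0.07) overlapped and was not called. The share of counts from mitochondrially encoded genes was 0.755 ± 0.126% in splenic cells and 1.08 ± 0.173% in DP (SD, n = 5 and n = 3, exact two-sided permutation p = 0.0357, adjusted 0.0446 over 5 composition measures, where the smallest possible is 0.0179). Of 24 glycolysis genes 13 fell and 4 rose (median -0.59). Gapdh fell by 1.95 ± 0.21, the enolase Eno1 by 1.21 ± 0.12 and Ldhb by 2.81 ± 0.09, and the kinase Pdk1, which restrains pyruvate dehydrogenase, rose by 1.25 ± 0.15.

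Cholesterol synthesis fell in 20 of 29 genes and rose in 5 (median -0.97). The enzymes Sqle, Msmo1 and Sc5d fell by 2.28 ± 0.10, 1.83 ± 0.15 and 2.03 ± 0.12. The cholesterol exporter Abca1 went the other way, with 72.8, 74.8, 53.9, 56.5 and 52.6 CPM in splenic cells and 0.778, 0 and 0.567 CPM in DP, a rise of 7.09 ± 0.87 (7.71 without DP 1 and 6.51 without DP 2). The sterol reductase Tm7sf2, an enzyme of synthesis, rose as well, by 2.34 ± 0.34. Synthesis enzymes were thus found on both sides, and the regulator Srebf2 (-0.14 ± 0.25) was called only without DP 1 (-0.35). Without DP 2 or DP 3, or without splenic library 1, 3 members of this list rose.

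Of 25 genes of the amino acid response, 18 fell and 2 rose (median -0.85). Asparagine synthetase (Asns) held 64.4, 38.2 and 46.2 CPM in DP and 0, 0, 0, 0.241 and 0.17 CPM in splenic cells, a fall of 9.13 ± 0.39 (by 10.19 without splenic library 4). The amino acid transporter Slc7a5 fell by 1.78 ± 0.07 and the tRNA synthetases Gars and Aars by 1.53 ± 0.06 and 1.50 ± 0.05, while the transporter Slc1a5 rose by 2.11 ± 0.08. Atf4 itself was not called (-0.15 ± 0.15). In ribosome biogenesis 18 of 40 genes fell and 3 rose (median -0.33), and 1 rose without DP 3 or without splenic library 4. Nucleophosmin (Npm1) fell by 1.67 ± 0.14, Ncl by 1.18 ± 0.21 and Pes1 by 1.60 ± 0.15. Ribosomal protein genes took 2.14 ± 0.141% of counts in splenic cells and 3.82 ± 1.02% in DP (exact two-sided permutation p = 0.0179, the smallest possible, n = 5 and n = 3), with DP 1 the highest at 4.99%.

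Effector and memory genes did not rise in splenic cells as a group. Of 41 tested, 15 fell and 6 rose (median -1.08; -0.66 and 4 rises without DP 1). Gzmb, granzyme B of killer granules, held 104, 106 and 91.8 CPM in the DP cells and 2.16, 2.34, 1.97, 2.78 and 2.55 CPM in splenic cells, a fall of 5.41 ± 0.10 (edgeR adjusted p = 5.32e-07). S100a4 held 539, 274 and 314 CPM in DP and 0.378, 0.778, 0.281, 0.603 and 0.679 CPM in splenic cells, a fall of 9.43 ± 0.37 (edgeR adjusted p = 2.97e-12). The galectins Lgals3 and Lgals1 fell by 8.69 ± 0.47 and 3.91 ± 0.26 (without splenic library 5, Lgals3 fell by 9.39), and Eomes, a regulator of memory CD8 cells, fell by 2.22 ± 0.28. Ly6c2, a surface protein of peripheral CD8 cells, rose by 4.38 ± 0.30 and the cathepsin Ctsw by 2.66 ± 0.25. Cd44, raised on antigen-experienced cells, was low and overlapping in both groups (2.05, 2.48, 0.844, 1.33 and 4.16 CPM in splenic cells and 2.25, 1.17 and 2.27 CPM in DP). Tbx21 (-1.08 ± 0.27) was not called with all 18 libraries and was called when the 8 were fitted alone.

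More markers of other T-cell lineages fell than rose. Of 16 NK and gamma-delta markers 8 fell and 1, Sox13, rose (median -1.97), and the rise of Sox13 was lost without DP 1 (1.55), DP 3 (2.16) or any 1 of splenic libraries 2, 3 and 4 (from 1.94 to 2.05), and was 2.71 without DP 2. The gamma chain constant gene Tcrg-C2 held 1013, 1051 and 1076 CPM in DP and 28.9, 31.5, 30.7, 30.8 and 32.1 CPM in splenic cells, a fall of 5.09 ± 0.04 (edgeR adjusted p = 6.31e-15). Tcrg-C1 fell by 4.41 ± 0.23, though the gamma constant genes are close copies and share reads. Cd163l1, a scavenger receptor family member read in gamma-delta T cells, held 1328, 1772 and 1699 CPM in DP and 101, 97.2, 109, 108 and 111 CPM in splenic cells (-3.93 ± 0.13). Among NK receptor genes, Ncr1, Klra3, Klra4, Klra7, Klra8 and Klra9 had no count in any DP library, while Klrb1c had 6, Klre1 12 and Klrg1 3 counts over the 3 libraries. The granule gene Nkg7 was read throughout, at 848, 538 and 545 CPM in DP and 510.2, 472, 490.2, 517 and 542 CPM in splenic cells, and was not called (-0.35 ± 0.22). Of 11 CD4 helper and regulatory markers 10 fell and 1, Tnfrsf4, rose (median -3.28). The call of Tnfrsf4 (2.36 ± 0.29) was lost in each fit without 1 library except that without splenic library 4.

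In the fetal programme 9 of 12 genes fell and 1 rose (median -1.76). Lin28b, which keeps lymphoid precursors in a fetal mode, held 8.65, 10.1 and 9.56 CPM in DP and no count in splenic cells, at least 37-fold lower. Igf2bp3, a Lin28b target, held 85.1, 83.6 and 77.6 CPM and 4.86, 5.73, 4.5, 6.52 and 4.93 CPM, a fall of 3.95 ± 0.10, and Hmga1 fell by 2.30 ± 0.09. Meis1, a stem cell homeobox gene, held 10.6, 12.1 and 11.7 CPM in DP and 0.27, 0, 0, 0 and 0 CPM in splenic cells, all of it in splenic library 1 (-7.31 ± 0.32, or -10.38 without that library). Of the 21 progenitor and pluripotency markers in the files, 14 had no count in DP, among them Pou5f1, Nanog and Sox2, and 3 of 4 tested fell. The pluripotency genes were thus at 0 while Kit, Meis1 and Lin28b were read in all 3 DP libraries.

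Imprinted genes are read from 1 parental copy and can be disturbed by reprogramming. They fell in 5 of 11 cases and rose in 1 (median -0.95). None rose without DP 2 or without DP 3, and the median was -1.32 without DP 1. Igf2 held 38.1, 25 and 24.5 CPM in DP and H19 9.77, 10.4 and 7.37 CPM, and neither had a count in splenic cells, at least 115-fold and 36-fold lower. Snrpn fell by 3.66 ± 0.17, from 109 ± 23.7 to 8.66 ± 0.458 CPM. Of 25 DNA methylation and Polycomb genes 8 rose and 10 fell (median -0.01), and 5 rose without DP 1. Uhrf1, which copies methylation at replication forks, held 295, 363 and 362 CPM in DP and 32.2, 29.2, 24.4, 23.2 and 30.7 CPM in splenic cells, a fall of 3.60 ± 0.14. Cbx7, a Polycomb reader, held 128, 131, 136, 133 and 126 CPM in splenic cells and 6.23, 5.61 and 7.21 CPM in DP, a rise of 4.36 ± 0.10, and the demethylase Tet3 rose by 1.48 ± 0.08. Rnf2 (-0.02 ± 0.08) and Suz12 (-0.15 ± 0.42), core Polycomb subunits, were not called, although Suz12 was without DP 1 (-0.46).

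Sialylation and O-glycan genes gave 6 rises and 4 falls in 23 (median 0.11). The fucosyltransferase Fut8 fell by 2.63 ± 0.17, and the sialomucin Spn (CD43) rose by 1.31 ± 0.13. The sialyltransferases St6gal1 (0.38 ± 0.09) and St8sia4 (0.04 ± 0.13) were not called.

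**Figure D4:**
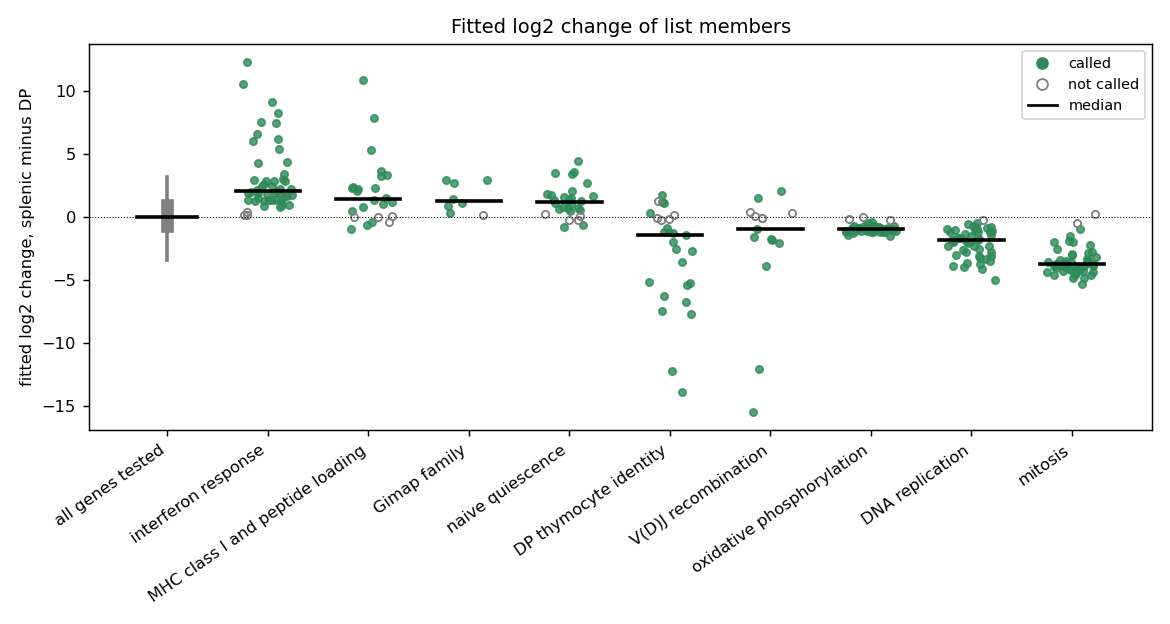
Each point is 1 list member placed by its fitted log2 change (splenic minus DP), filled where called and open where not, with a black line at the list median; the grey bar spans the 25th to 75th percentile of all 13922 genes and the thin line the 5th to 95th. Members with no count in one group lie furthest out, and their fitted change depends on a prior count. The interferon list has its median at 2.05 and the mitosis list at -3.71.

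The largest rises outside these lists began with Smpdl3a, a phosphodiesterase of the sphingomyelinase family, which held 109, 109.8, 109, 99.2 and 117 CPM in splenic cells and no count in DP, at least 420-fold higher. Tmie was at least 283-fold higher and the costimulatory ligand Cd86 at least 75.4-fold. The bounds for Tdgf1, Ldoc1l and Xlr3b, the last of a multigene family, were 74.4-fold, 70.7-fold and 132-fold. The largest falls included Nov, a secreted matrix protein, which held 245, 239.9 and 241 CPM in DP and no count in splenic cells, at least 949.7-fold lower. The vesicle protein Syt13 was at least 384-fold and the inflammasome sensor Nlrp6 at least 208-fold lower. Ifitm1 held 3554, 2062 and 2093 CPM in DP, and its splenic counts all came from library 5, at 1.44 CPM (-13.39 ± 0.75, or -18.22 without that library). Ifitm genes are close copies, so which member was read is uncertain. By difference in CPM, Rsrp1, Shisa5, Dgka, Arhgef1, Gramd1a and Macf1 joined the MHC genes and Tsc22d3 among the 10 largest rises, at changes from 1.66 ± 0.03 for Dgka to 3.57 ± 0.10 for Gramd1a. Eef1a1 (-0.90 ± 0.05) and Ppia (-1.18 ± 0.21) stood among the 10 largest falls. So did Tmsb4x (-0.47 ± 0.24), whose call was lost without DP 1 (-0.22), splenic library 2 (-0.44) or splenic library 3 (-0.46).

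Transcripts of other cells and of sex moved with the groups. B-cell markers rose in 10 of 17 tested cases and fell in 1, Ighm (median 4.36, or 2.85 with genes at 0 set to their bound). That median was 3.73 without DP 1 and 3.40 without DP 2, each with 18 members tested. Cd74, the MHC class II invariant chain, held 19.6, 38.3, 19.9, 26.2 and 44.6 CPM in splenic cells and 0.259, 0.0838 and 0.162 CPM in DP, and Cd79a 3.73, 5.59, 4.36, 5.19 and 7.56 CPM and 0.0865, 0.251 and 0.405 CPM. The list's summed level ran from 818 to 1019 CPM in splenic cells and from 975 to 1183 CPM in DP, most of it Ighm, and Ms4a1, Pax5, Cd22, Vpreb3, H2-Aa and H2-Eb1 had no count in DP. The haemoglobin gene Hbb-bs held 80.4, 97.9, 82.2, 92.2 and 76.4 CPM in splenic cells and none in DP (at least 331-fold higher), and its copies share reads. Erythroid and platelet markers summed to 179 to 231 CPM in splenic cells and 47.2 to 56.6 CPM in DP, where Gata1 supplied most, with 5 rises and 1 fall in 7 (median 10.04, or 5.11 at the bounds). Myeloid markers summed to 146 to 174 CPM and 52.6 to 61.5 CPM, with 2 rises and 1 fall in 8. Most of the sum was Ctss, while Lyz2, the macrophage lysozyme, held 5.45, 1.42, 2.11, 9.83 and 5.86 CPM in splenic cells and none in DP.

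Stromal transcripts stood in DP 2 and DP 3 and hardly in DP 1. Fibronectin (Fn1) held 0, 15.6 and 21.5 CPM in DP 1, 2 and 3, Col1a2 0, 10.6 and 12.3 CPM and the smooth muscle actin Acta2 0.432, 13.5 and 27.8 CPM, while splenic cells held 1 count of Fn1, none of Col1a2 and 0, 0.212, 0, 0.241 and 0.34 CPM of Acta2. Of 11 stromal markers tested 10 fell and none rose (median -6.45, or -4.41 at the bounds), and the list summed to 44.4 to 51.6 CPM in splenic cells and 218 to 268 CPM in DP, mostly Thy1, which T cells make too. Without DP 1, 14 of 16 tested fell (median -7.51). Without DP 3, 6 fell and 1 rose (median -5.45), and Acta2 fell by 5.45 in place of 6.45 ± 1.77. Without DP 2, 45 interferon genes rose and 47 mitosis genes fell, and without DP 3 the counts were 46 and 47, each fit keeping the other of these libraries. Xist, made from the inactive X chromosome of females, held 87.5, 115, 113, 76.1 and 91.4 CPM in splenic cells and none in DP. The Y-linked Ddx3y held 69.4, 95.6 and 83.6 CPM in DP and none in splenic cells, and Eif2s3y, Uty and Kdm5d were also confined to DP among these 8 libraries. The groups thus differ in their sex-linked transcripts, and sex cannot be told apart from cell type here. The part of B-cell, red-cell, stromal or sex-linked RNA in the gene lists above was not tested.

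**Figure D5:**
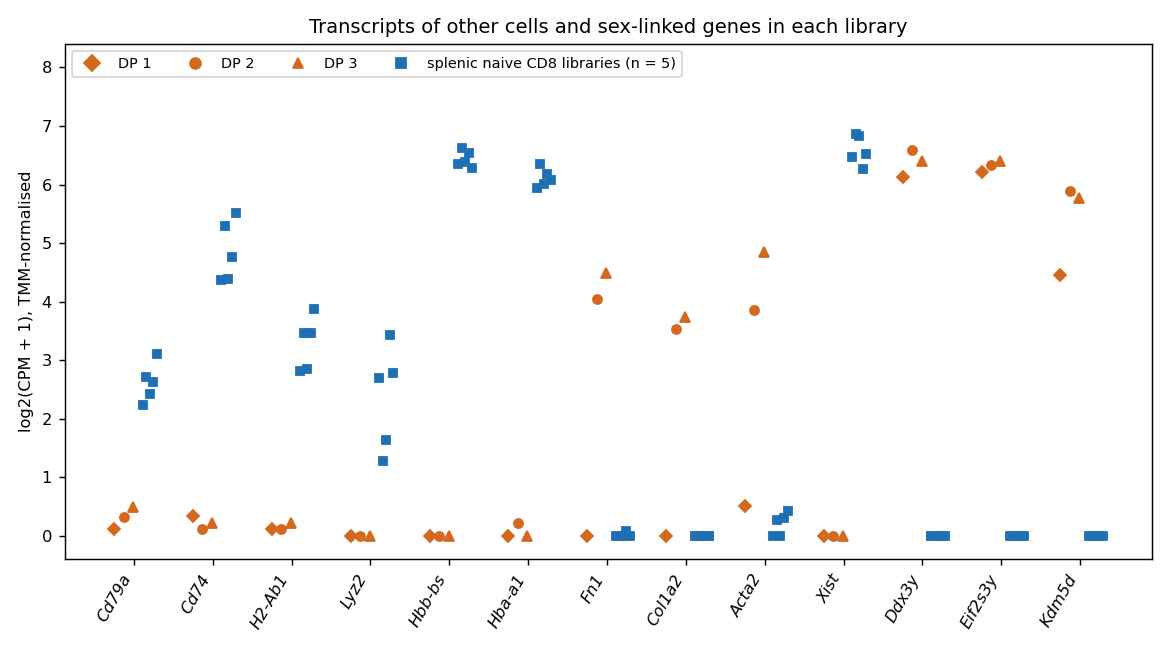
Each point is 1 library, with log2(CPM + 1) on the vertical axis and a separate symbol for each DP library. B-cell (Cd79a, Cd74, H2-Ab1), myeloid (Lyz2) and haemoglobin (Hbb-bs, Hba-a1) transcripts and Xist stand in splenic libraries, stromal ones (Fn1, Col1a2, Acta2) in DP 2 and DP 3, and Y-linked ones (Ddx3y, Eif2s3y, Kdm5d) in all DP libraries.

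The CD8+ cells that the study also made in culture give the levels of these genes at a later stage from the same source. Their libraries are titled iRTE (n = 5) and Artificial CD8 (n = 5). In CPM (± SD), with iRTE first, Nov averaged 713 ± 482 and 324 ± 21.5, Tcrg-C2 1227 ± 247 and 1045 ± 58, Lin28b 3.75 ± 3.27 and 12.7 ± 4.62 and Ifitm1 1270.4 ± 867 and 769.5 ± 87.1. These means lay above every splenic library. Cd4 averaged 0 ± 0 and 4.41 ± 2.85 CPM and Ptcra 0.832 ± 1.86 and 20.8 ± 5.48 CPM, levels below every DP library. H2-K1 averaged 2009 ± 206 and 707 ± 44.8 CPM, Usp18 44.3 ± 13.9 and 8.86 ± 1.84 CPM and Tsc22d3 238 ± 55.7 and 122 ± 8.28 CPM. These means lay below every splenic library, and no test of them was made here.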

How the data were processed

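Whole-number counts per gene symbol were deposited for 18 libraries. The authors made these counts, per the submitters' processing notes, with STAR 2.4.2, Subread and edgeR on build mm9. Which annotation was counted, and whether strand was used, is not given in the sources used here. No use was made of a deposited table of log2 values.

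Of 43280 genes, 13922 passed filterByExpr. One quasi-likelihood model was fitted to all 18 libraries with 1 coefficient per group (edgeR 4.0.16, R 4.3.3, TMM scaling, robust dispersion). P-values were adjusted by Benjamini-Hochberg over all genes, at a threshold of 0.05. The ± values are standard errors from the spread of log2 CPM within the splenic and DP groups (prior count 2), unless SD is written. A group without counts is compared through a floor of 3 counts per library. Floors and 95% intervals of ratios cover counting error only. Called without overlap means that all libraries of one group lie above all of the other.

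The comparison, gene lists and tests were chosen with earlier results of these data known. Genes were named by rule: the 12 largest rises and falls without overlap at 10 CPM or more in the higher group, per list up to 4 called members in the main direction, 2 in the other and 3 not called, a set of developmental genes, and the 10 largest CPM differences each way. Some genes under this rule are not reported here. Alternatives were RLE and upper-quartile scaling, no filter, a filter of 10 CPM in 3 libraries, DESeq2 1.42.0, limma-voom (limma 3.58.1), the 8 libraries alone, a replicate block and each library left out. Promoter windows are the first RefSeq entry of a gene. On data simulated for this comparison, with 200 of 13922 genes changed, 47% of 2-fold and 84% of 4-fold changes were recovered, and 3.68% of calls were false. These rates hold for that setting only, since 56.2% of genes were called in the data and the adjusted cut-off depends on that share.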

Additional observations from a re-analysis of the deposited data

Results flagged for a closer look

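In 11 of 244 values examined, 1 of the 5 splenic libraries lay far from the other 4, with a gap over 0.71 of the range. For normally spread values chance gives about 1 in 20, so the number flagged is no more than that share. The groups of 3 DP libraries are too small for this check. Mki67 was lowest in splenic library 2, at 18.8 CPM, and Tcf7 was lowest there too, at 1401 CPM. Splenic library 5 was highest for Oas1a at 48.3 CPM and lowest for Erap1 at 190.5 CPM. Egr1 was highest in splenic library 4 at 64.1 CPM. The others were read in 1 library while the other 4 held none, so the gap is the whole range. Cd4 at 0.162 CPM, Rag2 at 0.108 CPM and Meis1 at 0.27 CPM rest on a few counts in splenic library 1. So do Fn1 at 0.0603 CPM in splenic library 4 and Cdkn2b at 0.0849 CPM in splenic library 5. Ifitm1 rests on more counts, at 1.44 CPM in splenic library 5, where 3 counts equal 0.255 CPM.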

How the results depend on the processing

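The counts of genes called higher (3809) and lower (4019) stayed within 1.5 times under all 16 alternatives. They were 4655 and 4366 in a fit of the 8 libraries alone and 3579 and 3747 with a replicate block. Same-numbered libraries did not deviate together (correlations of -0.02, 0.06 and 0.02, beside -0.06 to 0.07 for libraries of different number). No pairing by number was seen, but so few libraries cannot exclude it. Leaving out 1 library gave 3192 to 3476 genes higher and 3675 to 3937 lower, 2265 to 2370 and 1973 to 2286 of them at least 2-fold, and 4514 to 5362 and 4427 to 5198 without overlap. With the filter of 10 CPM, which tests 9476 genes, 1557 were higher and 1386 lower by at least 2-fold, against 2544 and 2205. Egr3 was not followed through the alternatives. Of the other 192 called genes named here, 182 kept call and direction in every alternative that tested them. The remaining 10 lost the call in at least 1: those given in the report, and Ddx3y with limma-voom. None reversed. Of 47 named genes not called, 11 were called in the fit of the 8 libraries alone. These were Bax, Bcl2l11, Cd6, Cd8a, Cxcr4, Egr1, Kif23, Nkg7, Nr4a1, St6gal1 and Tbx21. At these depths a gene without counts in a library is bounded at 0.162 to 0.259 CPM by the floor.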
